A study of Saccharomyces cerevisiae with 18 samples.

Results

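The 8 genes described here serve the use of acetate, ethanol and lactate in budding yeast (Saccharomyces cerevisiae). They are the carrier genes SFC1, JEN1 and ADY2, the acetyl-CoA synthetase genes ACS1 and ACS2, the aldehyde dehydrogenase genes ALD4 and ALD6, and the alcohol dehydrogenase gene ADH2. They were chosen by gene symbol, and all 8 were found among the 5272 named genes tested, each with a 70-mer probe printed in 2 spots. RNA came from 2 independent wild-type cultures, a and b, which the labels call wt-matA of strain BY4742 and which carry no gene deletion of the glucose regulatory system. Glucose-depleted cells were inoculated into fresh synthetic complete medium with 2% glucose and sampled immediately after, here called 0 min. The 8 later times were 3, 7.5, 15 and 30 min, then 60, 110, 150 and 300 min (n = 2 at each time). Each of the 18 two-colour arrays set RNA of 1 culture at 1 time against a common reference pool, also labelled BY4742, and the value used is the log2 ratio of sample to pool. No culture moved into fresh medium without glucose is among the samples, so glucose and fresh medium cannot be told apart.

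Yeast ferments glucose to ethanol, and once the glucose is gone it burns the ethanol. Alcohol dehydrogenase turns ethanol into acetaldehyde, aldehyde dehydrogenases turn acetaldehyde into acetate, and acetyl-CoA synthetases turn acetate into acetyl-CoA. Growth on these compounds needs the glyoxylate cycle and gluconeogenesis to build sugars, and genes of these routes are known to be repressed by glucose and switched on by the activators Cat8, Sip4 and Adr1 once it is used up.

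The direction of 1 array was not settled. By the labels, Cy5 marks the sample on both 0 min arrays, but from 3 min on Cy5 marks culture b and Cy3 marks culture a. As labelled, the log2 ratios of the 0 min arrays had r = -0.91 across genes, against 0.61 to 0.97 between a and b from 3 min on. Genes that differ by mating type show the same opposition. The mean log2 ratio of 4 alpha-cell genes was 4.64 with culture a at 0 min read as labelled, -4.04 on the 0 min array of b and -5.06 to -4.23 on the 16 arrays that followed. LYS2 had -3.30, 3.30 and 3.12 to 4.47 on the same arrays. The BY4742 background is of mating type alpha with a deletion of LYS2, so these genes go against that strain label for the cultures. For SFC1, a member, the pool has a scanner signal of 8516 on this array as labelled and 459.9 once turned. The pool has 64.9 to 230.0 on the other 17. These member values depend on the reading and are not support for it. For the opposite ratios across genes, the mating type genes and LYS2, the array of culture a at 0 min was turned. Values against 0 min are given for the turned array unless stated otherwise. Values as labelled and values without this array follow in a paragraph of their own. Once it is turned, culture and dye cannot be told apart, since Cy3 then marks all samples of culture a. Between 97.9 and 99.3% of gene spots on an array stood above local background. There are 2 arrays at each time, and this number limits the precision.

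All 3 carrier transcripts were far above the pool at 0 min and near it from 110 min on. In RNA from whole cultures, less RNA per cell and fewer cells expressing a gene cannot be told apart. SFC1 encodes the succinate-fumarate carrier of the mitochondrial inner membrane, which feeds succinate from the glyoxylate cycle into mitochondria. It had log2 ratios of 4.28 and 5.16 at 0 min (here and below culture a, then culture b), 3.50 and 3.52 at 3 min, 2.47 and 2.65 at 7.5 min and 2.004 and 2.13 at 15 min. The ratios were 0.85 and 0.73 at 30 min, 0.46 and 0.40 at 60 min, and between 0.0043 and 0.17 on the 6 arrays from 110 to 300 min. Both arrays of each time lay below both arrays of the time before up to 60 min. SFC1 fell by 1.21 on the log2 scale at 3 min against 0 min (standard error 0.20, adjusted p = 0.000249 from limma), by 3.93 at 30 min (adjusted p = 9.67e-09) and by 4.69 at 300 min, which is 25.8-fold (adjusted p = 2.17e-09). At 110 to 300 min its sample signal was 62.8 to 126 scanner units with a local background of 39.9 to 68.5. The authors subtracted no background, which draws the ratios of such dim spots towards 0. The pool's own SFC1 signal was 459.9 and 230.0 on the 0 min arrays and 64.9 to 135 on the 16 later arrays, and the part of this difference in the ratios was not tested.

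JEN1 encodes the plasma membrane permease for lactate and pyruvate. Its log2 ratios were 3.84 and 4.40 at 0 min, 2.83 and 3.06 at 3 min, 2.39 and 2.65 at 7.5 min, 1.98 and 2.09 at 15 min and 1.03 and 1.07 at 30 min. At 60 min they were 0.59 and 0.51, at 110 min 0.20 and 0.30, at 150 min 0.11 and 0.58, and at 300 min 0.04 and 0.20. The fall thus ran on past 30 min, with the cultures 0.47 apart at 150 min. JEN1 fell by 1.18 at 3 min (standard error 0.18, adjusted p = 0.000173), by 3.07 at 30 min (adjusted p = 3.76e-08) and by 3.999 at 300 min, 16.0-fold (adjusted p = 3.55e-09). JEN1 was also lower at 300 min than at 30 min, by -0.93 (adjusted p = 0.00127), a call that was lost without the 30 min array of culture b (adjusted p = 0.0105) or with culture a at 300 min left out (adjusted p = 0.0127). Scaled to 6 external control probes, JEN1 had -0.71 there (adjusted p = 0.00111), below the fold threshold. At 110 to 300 min the JEN1 sample signal was 83.8 to 246 scanner units with a local background of 39.5 to 69.5. As for SFC1, ratios of such dim spots are drawn towards 0. The pool's JEN1 signal was 770.6 and 253.6 on the 0 min arrays and 81.7 to 209 on the 16 later arrays. The part of this difference in the ratios was not tested.

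ADY2 encodes an acetate transporter of the plasma membrane. It had 2.61 and 2.52 at 0 min, 0.83 and 1.11 at 3 min, 0.87 and 0.52 at 7.5 min, 0.46 and 0.49 at 15 min and -0.03 and -0.17 at 30 min. On the 8 arrays from 60 to 300 min its ratios ran from -0.27 to 0.07, with a median of -0.08. ADY2 fell by 1.59 at 3 min (standard error 0.14, adjusted p = 1.42e-06), by 2.66 at 30 min (adjusted p = 1.14e-08) and by 2.65 at 300 min, 6.28-fold (adjusted p = 8.85e-09). It reached its final level by 30 min: 300 min differed from 30 min by 0.0052 on the log2 scale (standard error 0.14, adjusted p = 0.98). Of its whole change between 0 and 300 min on the log2 scale, 59.9% was present at 3 min, against 29.4% for JEN1 and 25.8% for SFC1. The difference between the carriers in this share was not tested.

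**Figure D1:**
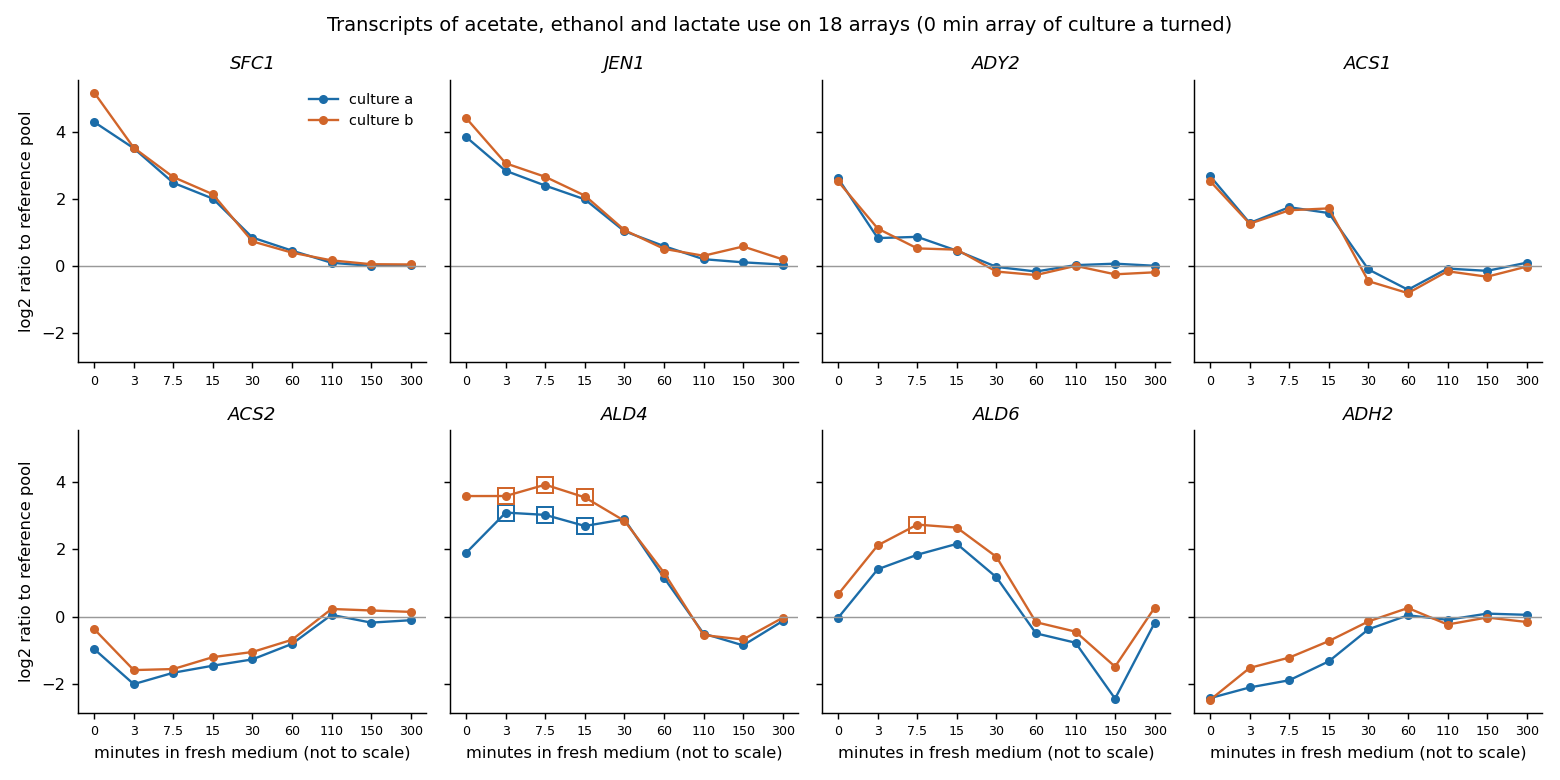
The log2 ratio of sample to reference pool for each of the 8 transcripts (vertical axis) against minutes in fresh medium (horizontal axis, evenly spaced), with 1 point per array and 1 line per culture; open squares mark arrays whose sample signal was above the saturation limit. SFC1, JEN1, ADY2 and ACS1 lie between 2.52 and 5.16 at 0 min and near the pool at the end, ADH2 starts at -2.42 and -2.48, and ALD4 and ALD6 lie above the pool from 3 to 30 min and then fall.

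The acetyl-CoA synthetase transcripts parted: ACS1 fell sharply between 15 and 30 min, while ACS2 was lowest at 3 min and climbed until 110 min. ACS1 encodes the enzyme used in respiration on acetate and ethanol. It had 2.67 and 2.52 at 0 min, 1.28 and 1.26 at 3 min, 1.75 and 1.66 at 7.5 min and 1.57 and 1.71 at 15 min. It then had -0.10 and -0.45 at 30 min, -0.71 and -0.81 at 60 min, -0.08 and -0.16 at 110 min, -0.14 and -0.32 at 150 min and 0.10 and -0.02 at 300 min. ACS1 thus stood higher on all 4 arrays of 7.5 and 15 min than on both 3 min arrays, and lowest at 60 min. That rebound did not pass the test, with 0.38 at 15 min against 3 min (standard error 0.11, adjusted p = 0.0378). ACS1 fell by 1.33 at 3 min (adjusted p = 1.13e-06), by 2.88 at 30 min, 7.34-fold (adjusted p = 1.47e-09), and by 2.56 at 300 min (adjusted p = 2.53e-09). From 3 to 30 min it fell by 1.55 (standard error 0.11, adjusted p = 1.28e-06).

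ACS2 encodes the synthetase that supplies acetyl-CoA in cells growing on glucose, and it is essential there. Its log2 ratios were -0.97 and -0.37 at 0 min, -2.01 and -1.59 at 3 min, -1.67 and -1.56 at 7.5 min, -1.46 and -1.20 at 15 min and -1.27 and -1.05 at 30 min. They were -0.81 and -0.69 at 60 min, 0.05 and 0.23 at 110 min, -0.18 and 0.18 at 150 min and -0.11 and 0.14 at 300 min. ACS2 came up to the pool's level by 110 min, with culture b above culture a at all 9 times, a gap in which culture and dye cannot be told apart. It fell by 1.13 at 3 min (standard error 0.20, adjusted p = 0.000505) and rose by 1.18 at 300 min against 30 min, 2.26-fold (adjusted p = 0.000524). Against 0 min it was 0.69 at 300 min (adjusted p = 0.00984), which passed the p threshold but missed the fold threshold with 1.61-fold, and it passed both without the 0 min array of culture b (0.98, adjusted p = 0.00128) and when scaled to the external control probes (1.54, adjusted p = 2.17e-07). On the same array, where any scaling of the array cancels, ACS1 minus ACS2 was 2.85 to 3.64 from 0 to 15 min, 1.17 and 0.60 at 30 min in cultures a and b, and -0.50 to 0.20 from 60 min on.

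**Figure D2:**
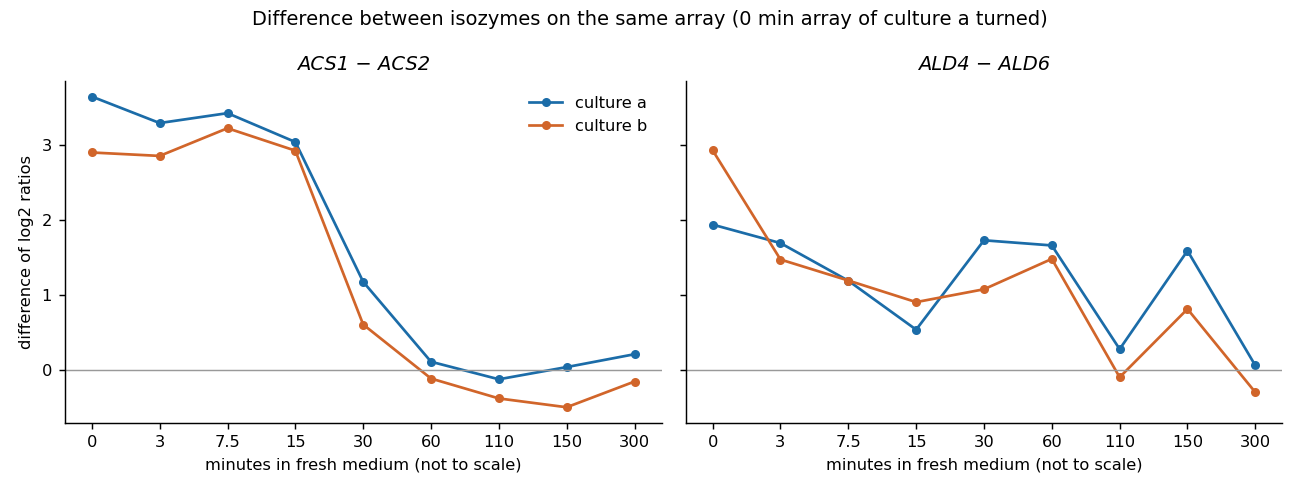
The difference between the log2 ratios of 2 isozyme transcripts on the same array (vertical axis) against minutes in fresh medium (horizontal axis, evenly spaced), with 1 point per array and 1 line per culture. ACS1 minus ACS2 drops between 15 and 30 min in both cultures, to 1.17 and 0.60, while ALD4 minus ALD6 moves up and down between -0.30 and 2.92.

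The aldehyde dehydrogenase transcripts were both above the pool from 3 to 30 min and fell later than those of the carriers. ALD4 encodes the main mitochondrial aldehyde dehydrogenase. It had 1.90 and 3.59 at 0 min, 3.10 and 3.59 at 3 min, 3.03 and 3.93 at 7.5 min, 2.70 and 3.55 at 15 min and 2.90 and 2.85 at 30 min. It then had 1.16 and 1.31 at 60 min, -0.50 and -0.55 at 110 min, -0.86 and -0.68 at 150 min and -0.13 and -0.04 at 300 min. The sample signal was above the saturation limit on all 6 arrays from 3 to 15 min, with 37579 to 64487 scanner units. This limit, 2 to the power of 15, marks signals that the authors call saturated or nearly so. The level there may thus be understated. At 0 min the cultures differed by 1.69, the widest gap of any member at any time. ALD4 at 3 and 30 min differed from 0 min by 0.60 and 0.13 (adjusted p = 0.276 and 0.817), and neither passed. These values rest on which 0 min array is used. Without the 0 min array of culture a they were -0.25 and -0.71 (adjusted p = 0.604 and 0.112). With culture b at 0 min left out they were 1.44 and 0.97 (adjusted p = 0.00578 and 0.0348), and the value at 3 min passed. ALD4 fell by 2.96 at 300 min against 30 min, 7.77-fold (standard error 0.46, adjusted p = 0.00024), and by 3.64 at 150 min against 30 min, 12.5-fold (adjusted p = 6.11e-05). Against 0 min it fell by 2.83 at 300 min, 7.10-fold (adjusted p = 0.000158), with -3.67, 12.7-fold, when culture a at 0 min was left out and -1.98 when culture b was.

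ALD6 encodes the main cytosolic aldehyde dehydrogenase, which also supplies NADPH. It had -0.03 and 0.66 at 0 min, 1.41 and 2.122 at 3 min, 1.84 and 2.74 at 7.5 min, 2.17 and 2.65 at 15 min and 1.17 and 1.78 at 30 min. It had -0.50 and -0.17 at 60 min, -0.78 and -0.45 at 110 min, -2.44 and -1.49 at 150 min and -0.19 and 0.27 at 300 min. The mean of ALD6 was thus highest at 15 min and lowest at 150 min, and culture b lay above culture a at all 9 times. The 7.5 min array of culture b was above the saturation limit. ALD6 rose by 1.45 at 3 min against 0 min, 2.73-fold (standard error 0.41, adjusted p = 0.00898), a call that was lost when culture a at 0 min was left out (1.101, adjusted p = 0.0768) or culture b at 3 min (1.09, adjusted p = 0.0842). At 30 min it was 1.16 above 0 min (adjusted p = 0.024), which did not pass, whereas with the culture as a block it did (adjusted p = 1.7e-05). ALD6 fell by 3.44 at 150 min against 30 min, 10.9-fold (adjusted p = 4e-05). At 300 min it stood 1.44 below 30 min (log2 difference -1.44, adjusted p = 0.012) and 2.004 above 150 min (adjusted p = 0.0383). Neither passed, while with the culture as a block both did (adjusted p = 6.67e-06 and 2.14e-05).

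The probe of ADH2, which encodes the alcohol dehydrogenase that oxidises ethanol, moved against the carriers. Its log2 ratios were -2.42 and -2.48 at 0 min, -2.11 and -1.53 at 3 min, -1.89 and -1.22 at 7.5 min, -1.33 and -0.73 at 15 min and -0.38 and -0.14 at 30 min. On the 8 arrays from 60 to 300 min they ran from -0.23 to 0.26. The probe's signal rose by 2.19 at 30 min against 0 min, 4.57-fold (standard error 0.25, adjusted p = 8.46e-06), by 2.40 at 300 min (adjusted p = 3.49e-06), and by 1.56 at 30 min against 3 min (adjusted p = 0.000422). ADH2 is nearly identical in sequence to ADH1, which encodes the alcohol dehydrogenase that makes ethanol in fermentation, so the transcript behind this probe is uncertain. The ADH1 probe had -2.94 and -0.58 at 0 min, -2.66 and -0.85 at 3 min, -2.37 and -1.34 at 7.5 min and -1.48 and -1.05 at 15 min. At 30 min it had -0.48 and 0.04, and on the 8 arrays from 60 to 300 min -0.32 to 0.44. Its pool signal was above the saturation limit on 16 of the 18 arrays, so these ratios may be compressed. Its sample signal was above the limit on 9 of the 18, among them 6 of the 8 arrays from 60 to 300 min. None of the ADH1 probe's comparisons with 0 min passed at 3, 30 or 300 min (log2 differences of 0.0080, 1.54 and 1.74, limma adjusted p = 0.993, 0.0642 and 0.0391). With the culture as a block the value at 300 min passed (adjusted p = 0.00706), whereas without culture a at 0 min it was 0.56 (adjusted p = 0.434). Over the 18 arrays, which share the pool, the ratios of the ADH2 and ADH1 probes had r = 0.84, and over the 16 later arrays r = 0.95.

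**Figure D3:**
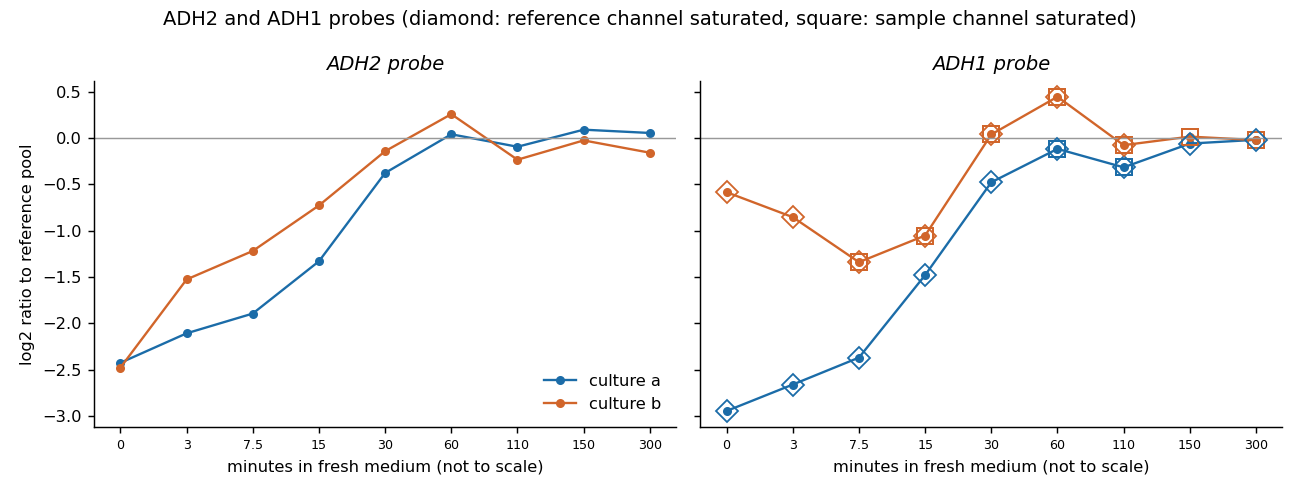
The log2 ratio of sample to reference pool at the ADH2 and ADH1 probes (vertical axis) against minutes in fresh medium (horizontal axis, evenly spaced), with 1 point per array and 1 line per culture. Both probes climb towards the pool's level between 7.5 and 60 min, and the diamonds show that the pool signal of ADH1 was above the saturation limit on 16 of 18 arrays. Squares mark the 9 arrays on which the sample signal of ADH1 was above it.

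For a change to count, the adjusted p had to be under 0.01 and the change larger than 1.7-fold. At 3 min against 0 min 5 of the 8 members fell (ADY2, ACS1, SFC1, JEN1 and ACS2), where 13.3% of all 5272 genes fell, and ALD6 rose, where 12.2% rose. At 30 min ACS1, ADY2, JEN1 and SFC1 fell, 4 of 8 where 19.7% of all genes fell, and the ADH2 probe rose, where 17.3% did. At 300 min these 4 and ALD4 fell, 5 of 8 where 19.3% of all genes fell, and again the ADH2 probe was the 1 that rose, where 19.2% did. The median log2 difference of the 8 members stood at -1.15 (3 min), -1.58 (30 min) and -2.61 (300 min), beside -0.0063, -0.011 and 0.03 over all genes. These comparisons share the same 0 min arrays. Scaled to the external control probes, SFC1, JEN1 and ACS2 lost their call at 3 min, with -0.74, -0.71 and -0.66, all below the fold threshold, and the ADH2 probe gained one with 1.103.

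In comparisons that leave 0 min out, the log2 differences do not depend on the turned array. Their standard errors, adjusted p, calls and shares of all genes do, since all arrays share 1 estimate of the spread. These comparisons were not fitted with that array as labelled. At 30 min against 3 min ACS1, ADY2, JEN1 and SFC1 fell, 4 of 8 where 7.17% of all genes fell, and the ADH2 probe rose, where 2.48% did. SFC1 moved most, by -2.72, or 6.60-fold (standard error 0.20, adjusted p = 1.35e-06). At 300 min against 30 min ALD4 and JEN1 fell, 2 of 8 where 6.64% of all genes fell, and ACS2 rose, where 8.59% did. SFC1 had -0.76 in that comparison (adjusted p = 0.00764) and missed the fold threshold with 1.69-fold. At 15 min against 3 min SFC1 and JEN1 had changed, with -1.44 and -0.91 (adjusted p = 0.00051 and 0.00537), 2 of 8 where 3.05% of all genes changed. Without any 1 of the 4 arrays of these times JEN1 lost its call (adjusted p from 0.0176 to 0.0503) and SFC1 kept its own. At 150 min against 30 min ALD4, ALD6 and ACS2 had changed, 3 of 8 where 12.9% of all genes had. At 300 min against 150 min limma called 0 of 8, where 0.247% of all genes changed, with 2 members at an unadjusted p under 0.05. With the culture as a block limma called 1 of 8, ALD6 (adjusted p = 2.14e-05), and the share of all genes is not given there.

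**Figure D4:**
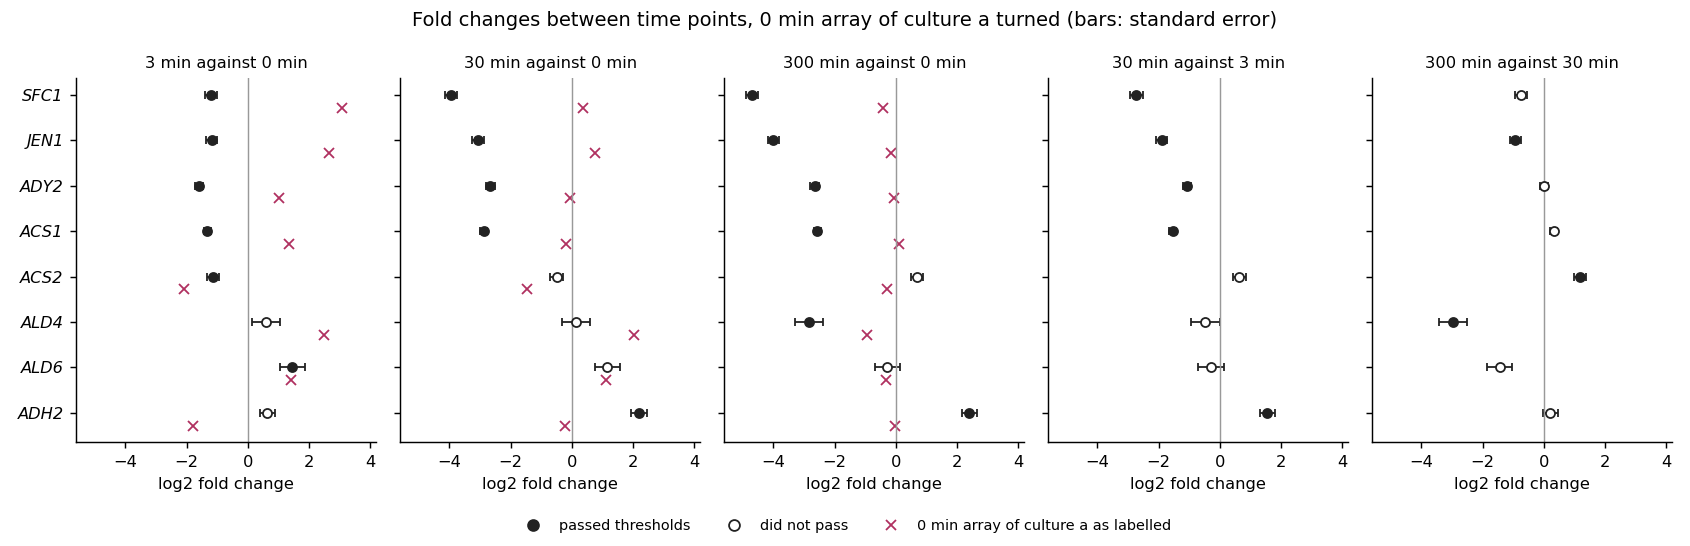
Log2 fold changes of the 8 members (horizontal axis) in 5 comparisons, with standard errors from limma over the 18 arrays; filled points passed an adjusted p of 0.01 and a 1.7-fold change, and crosses give the value with culture a at 0 min read as labelled. SFC1, JEN1, ADY2 and ACS1 lie left of 0 in all 3 comparisons with 0 min and at 30 min against 3 min, and the crosses of these 4 genes at 3 min lie on the other side of 0.

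With culture a at 0 min read as labelled, 0 min averages 2 opposite arrays. Then 1 of 8 members passed at 3 min, ACS2 with -2.10 (adjusted p = 0.00321), where 4.42% of all genes did. At 30 min limma called 0 of 8, where 3.81% of all genes passed, with 2 members at an unadjusted p under 0.05, and at 300 min 0 of 8, where 0% of all genes passed, with 0 members at such a p. The 4 transcripts SFC1, JEN1, ADY2 and ACS1 had positive values at 3 min as labelled, 3.07, 2.66, 1.02 and 1.34, with standard errors from 1.13 to 2.06. With the array left out, 5 of 8 members passed at 3 min, where 23.5% of all genes did, 6 at 30 min, where 34.9% did, and 6 at 300 min, where 36.4% did. Without it SFC1 had -1.65, -4.37 and -5.13 at 3, 30 and 300 min, and ACS2 passed at 30 min with -0.79 (adjusted p = 0.00567).

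Of 8 regulator transcripts, 0 rose and 4 fell at 3 and at 30 min against 0 min, and 1 rose and 5 fell at 300 min. Of all genes, 12.2, 17.3 and 19.2% rose and 13.3, 19.7 and 19.3% fell at these 3 times. CAT8, a zinc cluster activator of gluconeogenic genes, had log2 ratios of 3.89 and 3.96 at 0 min, 2.29 and 2.20 at 3 min and 0.84 and 0.66 at 30 min, and it fell by 3.17 at 30 min (adjusted p = 1.99e-10). SIP4, another zinc cluster activator, fell by 2.78 (adjusted p = 8.74e-08), ADR1, an activator of ADH2 and of peroxisomal genes, by 2.50 (adjusted p = 4.38e-09), and HAP4, the activating subunit of the factor for respiratory genes, by 1.58 (adjusted p = 1.99e-05). HAP4 had 1.19 and 1.41 at 3 min, 0.96 and 0.97 at 7.5 min, 1.11 and 1.26 at 15 min and 1.67 and 1.79 at 30 min, so both 30 min arrays lay above both 3 min arrays, a difference that did not pass (0.43, adjusted p = 0.106). HAA1, an activator for tolerance of weak acids, was unlike these: it had -0.03 at 30 min (adjusted p = 0.76) and fell by 0.88 at 300 min (adjusted p = 1.4e-06), a fall that was not there under the external control scaling (-0.023, adjusted p = 0.859). Among the repressors of the Mig family MIG2 rose by 1.32 at 300 min (adjusted p = 2.73e-07). MIG1 was -0.65 and MIG3 0.55 there (adjusted p = 0.00508 and 0.000271), both short of the fold threshold. MIG1 passed without culture a at 0 min (-0.90, adjusted p = 0.00104), and MIG3 under the external control scaling (1.41, adjusted p = 1.45e-06). As labelled limma called 0 of the 8 regulators at 3, 30 and 300 min, with 1, 0 and 2 at an unadjusted p under 0.05, and without the array 4, 4 and 6 fell. Of all genes, 4.42, 3.81 and 0% rose or fell as labelled, and 23.5, 34.9 and 36.4% without the array.

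**Figure D5:**
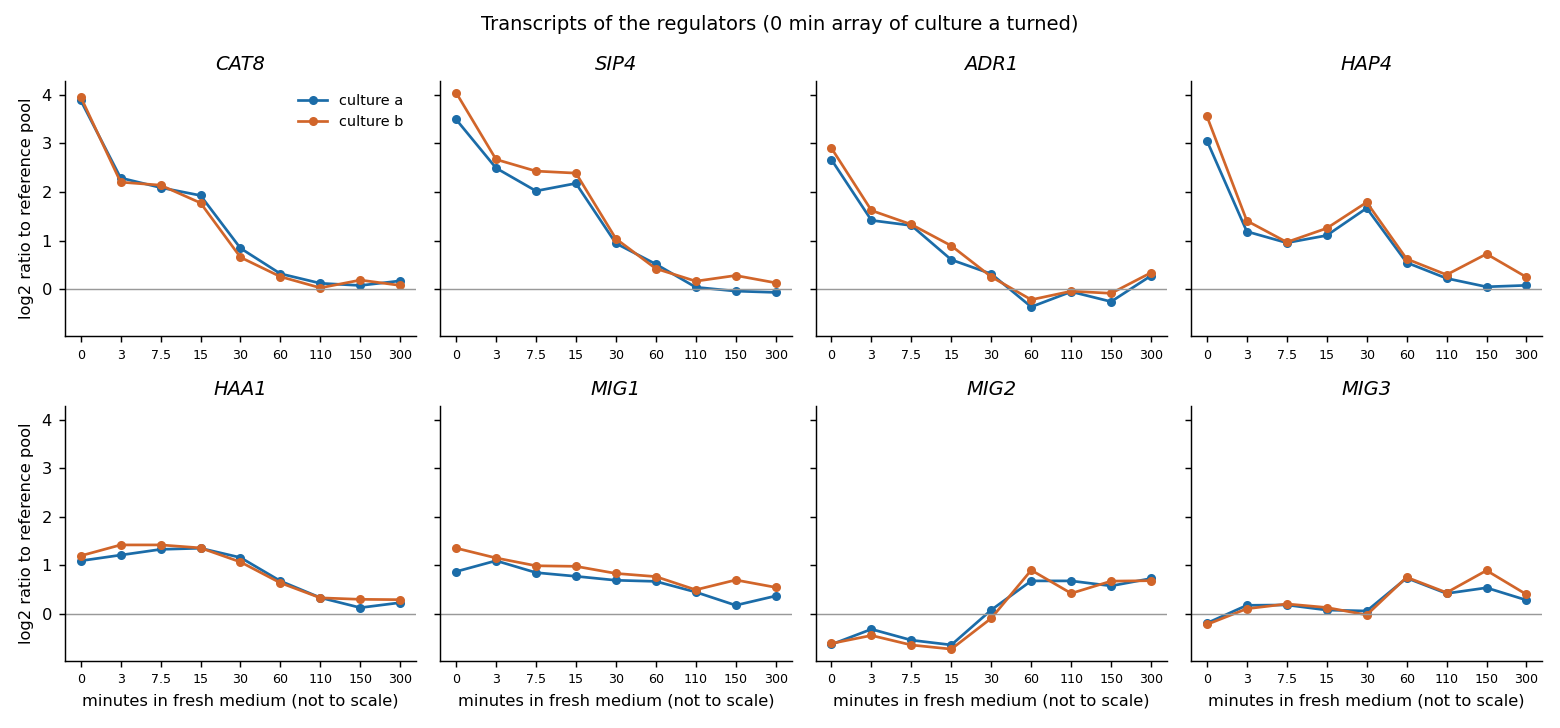
The log2 ratio of sample to reference pool for 8 regulator transcripts (vertical axis) against minutes in fresh medium (horizontal axis, evenly spaced), with 1 point per array and 1 line per culture. CAT8, SIP4, ADR1 and HAP4 start between 2.67 and 4.05 and come down, HAP4 with a second high point at 30 min, and MIG2 is below the pool until 15 min and above it from 60 min on.

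The neighbouring steps of carbon use moved with the carriers for the most part. Of 7 measured genes of acetate permease relatives and the acetyl shuttle, 6 fell at 30 min against 0 min, among them CAT2 with -4.11, ACH1 with -3.35, YAT2 with -1.97 and ATO2 with -1.39. Of all genes, 19.7% fell at 30 min. CAT2, YAT1 and YAT2 encode carnitine acetyltransferases and CRC1 the mitochondrial carnitine carrier, which together move acetyl units between compartments. CRC1 and YAT1 lost their calls without the 0 min array of culture b or without either 30 min array, YAT2 lost its own without culture a at 30 min, and CRC1, YAT1 and ATO2 lost theirs under the external control scaling. YAT2 had -2.84 without culture a at 0 min and -1.11 without culture b. ATO3, a relative of ADY2, did not pass (0.89, adjusted p = 0.0643), but was higher with culture as a blocking factor (adjusted p = 0.00974), under the external control scaling (1.53) and without culture b at 0 min (1.69). Of 7 genes of the glyoxylate cycle and gluconeogenesis, 6 fell, with IDP2 at -4.08, ICL1 (isocitrate lyase) at -3.47, MLS1 (malate synthase) at -3.45 and FBP1 (fructose-1,6-bisphosphatase) at -3.31. MLS1 had -4.08 without culture a at 0 min and -2.81 without culture b. MDH2, cytosolic malate dehydrogenase, had -0.01 at 30 min (adjusted p = 0.927). At 3 min it was lower than at 0 min (-0.91), a call lost under the external control scaling (-0.44) and with only the 2 times compared. At 300 min 6 of 7 of each list were lower than at 0 min, where 19.3% of all genes were. The list medians were -3.70 and -4.12. Between 30 and 300 min 5 of the 7 shuttle genes still fell, among them CRC1 with -3.31 and YAT2 with -2.38. Of all genes, 6.64% fell between these times.

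The lactate and alcohol enzymes were mixed. CYB2, L-lactate dehydrogenase of the mitochondrial intermembrane space, fell by 1.81 at 30 min (adjusted p = 9.16e-07), and DLD1, a mitochondrial D-lactate dehydrogenase, had -0.0076 at 30 min (adjusted p = 0.978) and fell by 1.67 at 300 min against 30 min (adjusted p = 4.43e-05). DLD2 rose by 0.82 at 30 min (adjusted p = 4.91e-05), and missed the fold threshold without culture a at 0 min (0.74) or culture b at 30 min (0.69). DLD3 had -0.83 at 30 min (adjusted p = 0.261), but fell without culture a at 0 min (-2.25, adjusted p = 1.5e-05). Of these 4, 1 rose and 1 fell at 30 min, where 17.3% of all genes rose and 19.7% fell. Among 10 other genes of alcohol and aldehyde dehydrogenases and pyruvate decarboxylases, 5 rose and 3 fell at 30 min, beside the same shares of all genes. PDC1, PDC5 and PDC6, pyruvate decarboxylases of like sequence that may share signal, rose by 3.73, 2.98 and 2.85. Without culture a at 0 min PDC1 and PDC5 had 2.21 and 2.36, and without culture b 5.25 and 3.61. ALD3, a cytosolic aldehyde dehydrogenase, fell by 2.01. As labelled, 0 genes of the shuttle, glyoxylate and lactate lists passed limma's test at 30 min, with 0 at an unadjusted p under 0.05, and ALD5 was the 1 gene of the alcohol list that did. Without that array 6 shuttle genes, 6 glyoxylate genes and 2 lactate dehydrogenases fell, 0 lactate dehydrogenases rose, and of the alcohol list 4 rose and 4 fell. Of all genes, 3.81% rose or fell as labelled and 34.9% without that array.

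The genes with the ratios most like each member over the 18 arrays, by Pearson's r, were found among all genes tested. For JEN1 they were CAT2 (0.997), ICL1 (0.996) and YMR090W (0.995), and for SFC1 CAT2 (0.996), JEN1 (0.993) and ICL1 (0.993). ADY2 was closest to USV1 (0.988), INH1 (0.987) and YTP1 (0.985), and ACS1 to ATG1 (0.975), AVT4 (0.970) and COX16 (0.969). ALD4 lay closest to CPA1 (0.977), HAA1 (0.974) and ESL1 (0.972), and ALD6, with the lowest values, to VTC3 (0.942), BIO5 (0.940) and BIO2 (0.935). ACS2 was nearest to HAT2 (0.985), TGL1 (0.982) and QNS1 (0.978), and the ADH2 probe to SEC14 (0.974), TEF4 (0.971) and RFC5 (0.967). Among the members, JEN1 and SFC1 had r = 0.993, ALD4 and ALD6 0.886 and ACS1 and ACS2 -0.495. The arrays share the pool and, in pairs, the time, so these values are descriptions of 9 time points in 2 cultures.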

How the data were processed

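The authors scanned 18 two-colour arrays (ImaGene mean intensities, no background subtraction) and normalised each print tip by loess (span 0.4). The deposited log2 ratios of sample to reference, on which the fits rest, were set against ratios recomputed from the deposited intensities and had r of 0.9998 or more with slopes of 1.00 to 1.002. Column medians were -0.0142 to 0.043, and the sources used here do not say whether arrays were centred further. The submitters' processing notes name limma 2.12.0. Spots of a probe were averaged. Of 6388 gene probes, 5326 carry a name, of which 5255 matched the reference table directly and 58 through an older name. For 12 genes the brighter probe was kept, and 19 mitochondrial and 23 transposable element probes were left out.

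One linear model with a coefficient per time was fitted to 5272 genes in R 4.3.3 with limma 3.58.1 (9 residual degrees of freedom, two-sided, Benjamini-Hochberg), tested on simulated data. The thresholds, an adjusted p of 0.01 and a 1.7-fold change, follow the study's methods. The members and lists were chosen with earlier results of these data known. The text names all members and regulators, up to 4 changed genes of each other list with the largest difference at 30 min, the 3 genes most like each member, and further genes where a contrast within a list needed them, chosen after their values were seen. The comparisons of 15 with 3 min and of 150 with 30 and 300 min were also added later. The labels number the cultures a and b at every time. Across genes, gaps between a and b at 2 times from 3 min on correlated at 0.368 to 0.901 (28 pairs of times). With the turned 0 min arrays they did so at 0.241 to 0.635. The letters also follow the dye, and the study corrected gene-specific dye bias for the deletion mutants but not for these arrays. A gap by culture and a gap by dye cannot be told apart, so these values alone cannot show that the letters pair the cultures. By the study's methods, though, each later time was set against 0 min of the same cultures. The main fit had no term for culture and treated the serial samples of a culture as independent. The block takes up culture and dye together. Replicates were separate cultures.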

Additional observations from a re-analysis of the deposited data

How the results depend on the processing

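Among single members, 653 values kept their direction and side of the thresholds over the alternatives, 40 lost and 18 gained a call, 38 that were called in neither changed sign, and 27 that were called changed sign, these 27 with culture a at 0 min read as labelled. As labelled, 0 members rose and 1 fell at 3 min, and 0 rose and 0 fell at 30 and at 300 min. With the culture as a block as well, 1 rose and 1 fell at 3 min, 1 rose and 0 fell at 30 min, and 0 rose and 0 fell at 300 min, ALD6 being the 1 that rose. At 3 min SFC1, JEN1, ADY2 and ACS1 then had 3.07, 2.66, 1.02 and 1.34, at 30 min SFC1, JEN1 and the ADH2 probe 0.35, 0.77 and -0.23, and at 300 min ACS1 and the ADH2 probe 0.12 and -0.026, each with or without the block. Shifted to the 6 external control probes as well, these were 2.75, 2.34, 0.69 and 1.02 at 3 min, 0.19, 0.61 and -0.39 at 30 min, and at 300 min ACS1 and ADY2 had 0.18 and 0.019, with 0 members rising and 0 falling at all 3 times.

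With the array turned, the external control shift moved the median of all genes to 0.46, 0.62 and 0.89 at 3, 30 and 300 min against 0 min, to 0.16 at 30 against 3 min and to 0.23 at 300 against 30 min. The split then was 2 rising and 2 falling at 3 min, where ACS1 and ADY2 kept their call, and 2 rising at 30 min, at 300 min and at 30 against 3 min. The members that fell in these last comparisons were the same as before the shift. At 300 against 30 min JEN1 lost its call and ALD6 gained one (-1.21, adjusted p = 0.009). Over all genes 1611 rose and 293 fell at 3 min in place of 641 and 703. At 30 min 2178 rose and 498 fell in place of 913 and 1037, and at 300 min 2886 and 427 in place of 1013 and 1019. At 30 against 3 min 281 rose and 278 fell in place of 131 and 378. At 300 against 30 min 776 rose and 193 fell in place of 453 and 350. With the culture as a replicate block, 2 members rose at 30 min and 1 at 300 against 150 min, ALD6 being the 1 gained in each case, and ALD6 also fell at 300 against 30 min. With the array turned, the block changed no other call of a member. With only the 2 times compared, 0 rose and 2 fell at 3 min, ALD4 lost its call at 300 min, and 0 fell at 15 against 3 min, with few residual degrees of freedom. With 1 loess curve per array on the scanner intensities 4 fell at 300 and 4 at 150 against 30 min. Leaving out each array in turn gave 0 to 2 members rising at 3 min, 1 to 2 rising at 300 min, 1 to 2 falling at 300 against 30 min and 1 falling at 15 against 3 min whichever of the 4 arrays was left out. Normexp background correction and the filter on dim probes changed no call of a member. For the block (turned or as labelled), the 2 times alone and the single loess curve, the share of all genes called is not given. Nor is it given for the external control shift as labelled or for arrays left out other than culture a at 0 min. The counts under these settings stand for the members alone. The cause was not tested for any of these changes.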
